A study of Mus musculus with 21 samples.

Results

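Mitochondrial ribosomal protein genes are nuclear genes whose products are made in the cytosol and imported to build the ribosome of the mitochondrion. They were taken as the protein-coding genes of the mouse build GRCm38 whose symbol is Mrpl (large subunit) or Mrps (small subunit) followed by a digit, without pseudogene symbols that carry "-ps". This gave 78 of 21900 protein-coding genes, 49 of the large and 29 of the small subunit, spread over 17 chromosomes with none on chromosome X or Y. Each gene was scored by whether a called peak of PSME3 or of H3K4me3 lay within 1 kb of its span.

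The mitochondrial ribosome translates the few mRNAs encoded by mitochondrial DNA, all of which specify subunits of the respiratory chain and the ATP synthase. Its proteins descend from those of bacteria, with many added in the course of evolution, and their genes are transcribed in nearly every cell. PSME3 (PA28γ) is a nuclear cap of the 20S proteasome, and H3K4me3 is a histone mark found at active promoters.

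The libraries were CUT&RUN, in which a nuclease tethered to an antibody releases the DNA around its target, from the mouse myoblast line C2C12. Cycling cells were grown in 20% FBS, frozen unfixed in 10% DMSO, and assayed in 3 replicates with each antibody. Day 2 cells had spent 48 h in 2% horse serum and were assayed once per antibody in each of 4 preparations, fresh or frozen and native or crosslinked with 0.1% formaldehyde for 5 min. The 7 IgG libraries were not analysed here. In addition to the list of each library, the authors called peaks once on the pooled cycling replicates of each antibody.

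As a check of the labels, Myod1, Myf5 and Des, which mark myoblasts, had H3K4me3 in all 7 libraries. Myog, which is switched on as myoblasts differentiate, had it in 0 of 3 cycling and 4 of 4 day 2 libraries. Alb and Ptprc, genes of liver and blood cells, had it in 0 of 7, whereas the endothelial gene Pecam1 had it in 2 of 3 cycling and 1 of 4 day 2 libraries. No list gives the number of reads behind a peak, so sequencing depth could not be known, and fold enrichment over the background that MACS2 estimated was compared only within a list. PSME3 lists held 1200, 776 and 3070 peaks in cycling replicates 1, 2 and 3, and 18 to 186 at day 2.

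Every mitochondrial ribosomal protein gene carried H3K4me3. The mark was called at 78 of 78 genes in the pooled cycling list, where 60.9% of all protein-coding genes had it. It was also called at 78 of 78 in each replicate, against 58.8%, 63.6% and 59.1% of all genes in replicates 1, 2 and 3. At day 2 it was again found at 78 of 78 genes in every preparation, against 54.5% of all genes in the fresh native, 57.5% in the fresh crosslinked, 56.9% in the frozen native and 57.6% in the frozen crosslinked library. All 78 had the mark in all 7 libraries, as did 53.2% of protein-coding genes. Other housekeeping families were nearly as complete, with a pooled H3K4me3 peak at 93.2% of cytosolic ribosomal protein genes and 90.9% of nuclear respiratory chain genes. The 95% Clopper-Pearson interval of 78 of 78 runs from 95.4% to 100% and covers counting error only, as do the other intervals given here.

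PSME3 was found at a minority of the same genes. The pooled cycling list placed it at 17 of 78 (21.8%, 95% interval 13.2 to 32.6%), next to 21.9% of all protein-coding genes. Of the 4806 genes with pooled PSME3, 4757 also had pooled H3K4me3, so a closer reference is the set of 13346 genes with a pooled H3K4me3 peak, of which 35.6% had PSME3. The large subunit contributed 10 of 49 genes (20.4%) and the small subunit 7 of 29 (24.1%).

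**Figure D1:**
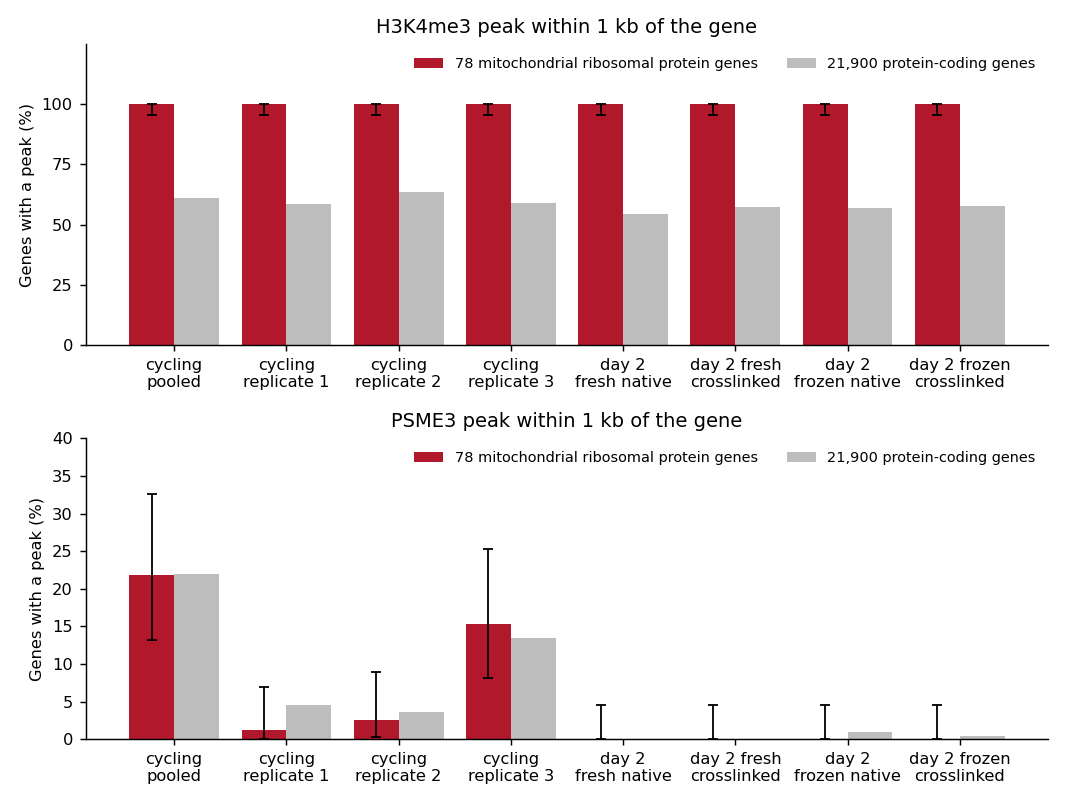
Percent of the 78 mitochondrial ribosomal protein genes (red) and of 21900 protein-coding genes (grey) with a peak within 1 kb, for H3K4me3 (top) and PSME3 (bottom), in each peak list; bars are shares and error bars are 95% Clopper-Pearson intervals. H3K4me3 was at 100% of the family in all 8 lists, whereas PSME3 reached 21.8% in the pooled cycling list and 0 in the 4 day 2 lists.

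The replicates differed in how many of these genes they recovered. In replicate 1 only Mrpl41 had a PSME3 peak, 1 of 78 genes or 1.28%, against 4.56% of all genes and 7.34% of genes with H3K4me3. In replicate 2 Mrpl24 and Mrpl40 had one, 2 of 78 or 2.56%, against 3.6% of all genes and 5.9% of genes with H3K4me3. Replicate 3 had 12 of 78 genes, or 15.4%, against 13.4% of all genes and 21.9% of genes with H3K4me3. No gene of the family was in all 3 replicate lists, where 1.19% of all genes were. Mrpl40 and Mrpl41 were in 2 of them. The share in at least 2 lists was thus 2.56% in the family and 4.27% of all genes. Replicate 3 was also the list with the most PSME3 peaks, and 3.85% of the family had a pooled peak that was found in replicate 1 or 2. The matching share over all genes was not counted.

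Against all protein-coding genes, the share with PSME3 differed by -3.28, -1.03 and 1.96 percentage points in replicates 1, 2 and 3. The mean difference was -0.783 ± 2.63 points (SD, n = 3, p = 0.75 in an exact test that flips the signs of the differences, two-sided as all tests here). The sign was not the same in the 3 replicates, the difference was smaller than their spread, and without replicate 1 its mean turned to 0.465. Against genes with a pooled H3K4me3 peak, the differences were -6.05, -3.33 and -6.52 points, with a mean of -5.30 ± 1.72 (SD, n = 3; exact sign-flip permutation p = 0.25). It was lower in 3 of 3 replicates, and 0.25 is the smallest p that 3 replicates allow. With peaks of a q-value of at most 0.01 alone, the mean difference was -0.176 points (exact sign-flip permutation p = 1). The labels do not say whether replicates came from separate cultures, though the study calls them biological replicates, so these p-values measure the spread between libraries.

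In the cycling libraries, 5 ± 6.08 genes of the family had PSME3 and 78 ± 0 had H3K4me3 (SD, n = 3 each). The exact permutation p was 0.1, the smallest that 3 against 3 libraries allow. The groups did not overlap, and neither did the shares of all genes, 3.6% to 13.4% with PSME3 and 58.8% to 63.6% with H3K4me3. The PSME3 lists held 776 to 3070 peaks and the H3K4me3 lists 18077 to 40999. With lists so unlike in length, this comparison cannot show a trait of the family. None of the exact tests in this design can pass a threshold of 0.05.

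The 17 pooled PSME3 peaks were of ordinary fold enrichment for their list. Their fold enrichment ran from 2.62 at Mrps6 to 3.66 at Mrps23, with a median of 2.93, next to a median of 2.92 and a highest value of 20.1 over all 5812 pooled PSME3 peaks. Among genes with a pooled PSME3 peak their median percentile was 47.6 by fold enrichment and 66.9 by the -log10 of the q-value, and 13 of the 17 had a q-value of at most 0.01. At that threshold 16.7% of the family and 12.8% of all protein-coding genes had a pooled PSME3 peak. Mrps23 encodes a small subunit protein with no bacterial counterpart. Its pooled peak, at chr11:88203869-88204264 (GRCm38, as all positions here), had a q-value with a -log10 of 4.15 and lay above 92.1% of all pooled PSME3 peaks by fold enrichment. It was called in replicate 3 at 4.88-fold and not in replicates 1 and 2.

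Mrpl48, a protein of the central protuberance of the large subunit, had the next highest pooled value, 3.55-fold at chr7:100590941-100591450, and 3.92-fold in replicate 3. The gene spans 62523 bp and has 4 listed start sites. Its peak covered a start inside the gene at 100591414 rather than the outermost start at 100608301. Mrpl57 (3.36-fold) and Mrpl17 (3.17-fold), which were also among the 10 highest, were called in the pooled list alone.

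Mrpl41, a large subunit protein without a bacterial counterpart, was, with Mrpl40, in the most replicate lists. Its pooled peak at chr2:24974874-24975912 was 1039 bp wide and 3.33-fold enriched, and it had the smallest q-value of the family, with a -log10 of 5.28. It was called at 5.48-fold in replicate 1 and 4.34-fold in replicate 3, and not in replicate 2. Mrpl40, which also sits in the central protuberance, was the other gene in 2 replicate lists, at 3.30-fold in replicate 2 and 3.65-fold in replicate 3. Its pooled value of 2.74 at chr16:18876646-18876908 was among the lowest of the 17, and it is named here after its values were seen.

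Of the rest of the 10 highest pooled values, Mrps28 (3.05), Mrpl18 (3.01), Mrps36 (2.95) and Mrps16 (2.93) were each called in replicate 3 as well. Mrps9 (2.88) was called in the pooled list alone. Mrpl18 and Mrps9 descend from bacterial ribosomal proteins, while Mrps36 keeps its ribosomal name although its product is now regarded as a subunit of the 2-oxoglutarate dehydrogenase complex. The other pooled peaks lay at Mrpl24, Mrpl37, Mrpl47, Mrpl51, Mrps18b and Mrps6, between 2.62- and 2.88-fold.

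Pooling added genes that no replicate list held. Mrpl17, Mrpl37, Mrpl47, Mrpl57 and Mrps9 had a pooled peak and no peak in any replicate, 5 of 17 genes or 29.4%, next to 36.6% of all genes with a pooled PSME3 peak. Conversely, Mrpl58, a large subunit protein that releases stalled peptides, had a 3.96-fold peak in replicate 3 and none in the pooled list. In all, 60 of the 78 genes had no PSME3 peak in any list. The matching share over all genes was not counted. In the pooled list alone 21.8% of the family and 21.9% of all genes had a peak.

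**Figure D2:**
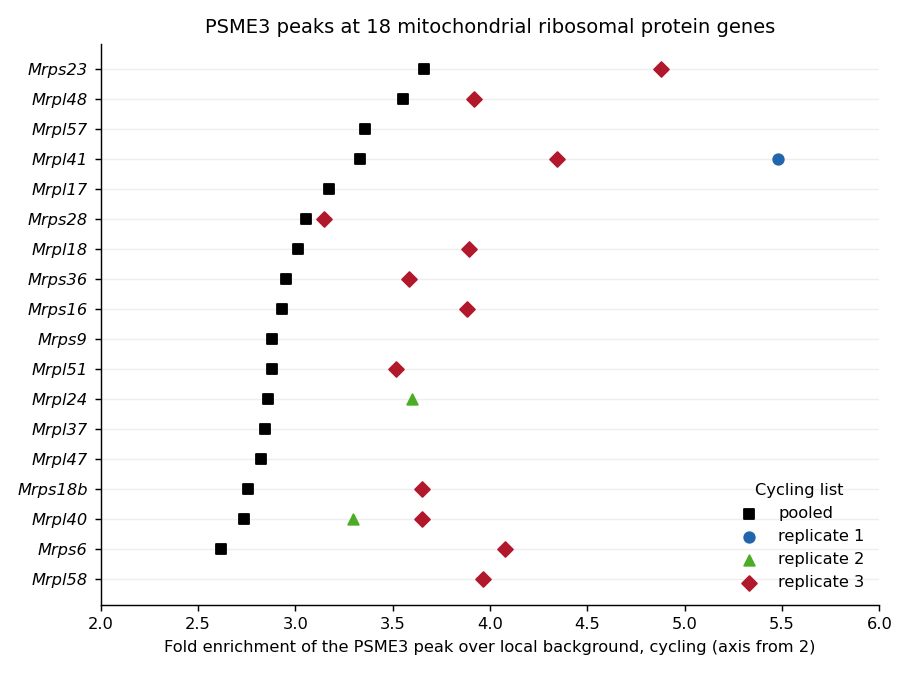
Fold enrichment of the PSME3 peak (x axis, linear, starting at 2) at each of the 18 genes with a PSME3 peak in any cycling list, with 1 symbol per list. Replicate 3 (diamonds) supplied 12 of the 15 replicate peaks, and pooled values ran from 2.62 to 3.66.

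The PSME3 peaks lay at promoters, within the H3K4me3 domain. All 17 pooled peaks fell entirely inside a pooled H3K4me3 peak (95% interval 80.5 to 100%), and each overlapped an H3K4me3 peak in all 7 libraries. Over all pooled PSME3 peaks, those away from genes included, 93.6% overlapped a pooled H3K4me3 peak by at least 1 bp. Of the 4806 genes with pooled PSME3, 4757 had pooled H3K4me3, so the overlap is not particular to the family. Each of the 15 peaks in replicate lists met H3K4me3 of its own replicate. PSME3 peaks of the family were 210 to 1166 bp wide (median 407), within H3K4me3 peaks of 1927 to 6456 bp.

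Start sites listed by RefSeq were at hand for 16 of these 17 genes. The centre of the peak lay 35 to 367 bp from the nearest start in all 16, with a median of 213.5 bp, and 9 peaks covered a start. Centres lay upstream at 11 genes, from Mrps23 at -322 bp to Mrps16 at -35 bp. They lay downstream at 5, from Mrpl17 at 42 bp to Mrps36 at 367 bp. Of the 17 peaks, 10 had another protein-coding gene within 1 kb, and all of these but the one at Mrpl57 had an upstream centre. An upstream centre may thus belong to the neighbour.

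**Figure D3:**
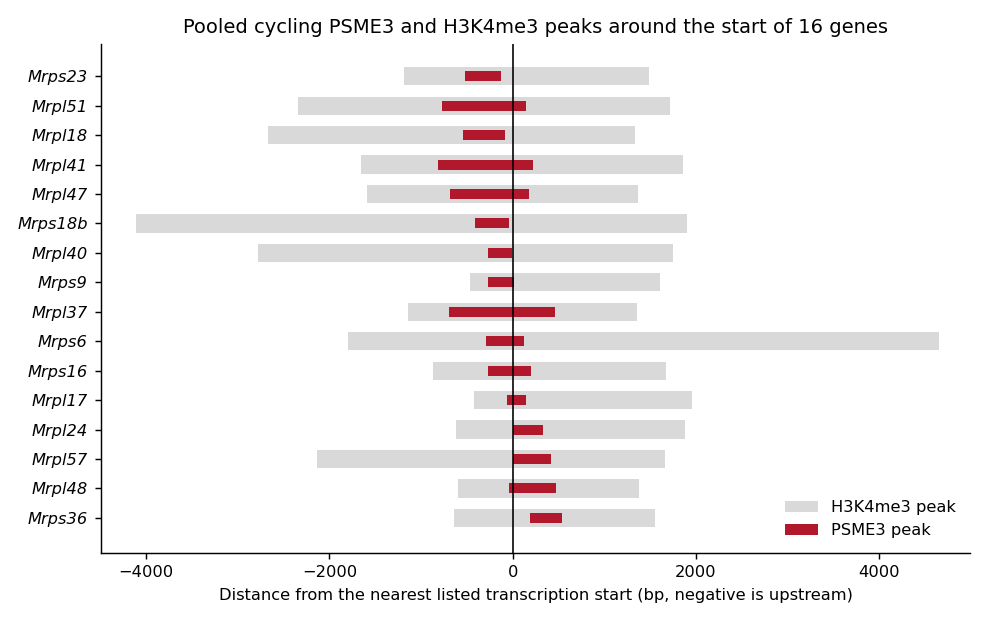
Extent of the pooled cycling PSME3 peak (red) and of the H3K4me3 peak around it (grey) at 16 genes, as distance in bp from the nearest listed transcription start, with the gene reading to the right. Each PSME3 peak lies inside its H3K4me3 peak with its centre within 367 bp of a start.

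The stretches just before the start of several of these genes are shown to make the sites concrete. Each runs 5′ to 3′ on the strand of the gene, up to the start (RefSeq promoter sequences, GRCm38.p6), and stops at 200 bases or at the next gene. Capitals mark matches, on either strand, to the NRF1 core GCGCANGC, the ETS/GABPA core CCGGAAG, the YY1 core AAGATGGC, the SP1/KLF box GGGCGG, the CCAAT box, the TATA box TATAAA or the E-box CAGCTG. Mrpl41 (chr2:24975099-24975298, minus strand) and Mrpl40 (chr16:18876638-18876749, minus strand) were the genes in 2 replicate lists. The peak covered all 200 bases at Mrpl41 and 104 of 112 at Mrpl40, where the next gene, Hira, begins.
Mrpl41: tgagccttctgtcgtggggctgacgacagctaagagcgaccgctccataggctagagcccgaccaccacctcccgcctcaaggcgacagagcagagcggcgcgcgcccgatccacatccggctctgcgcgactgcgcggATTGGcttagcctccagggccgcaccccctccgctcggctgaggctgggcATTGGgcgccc
Mrpl40: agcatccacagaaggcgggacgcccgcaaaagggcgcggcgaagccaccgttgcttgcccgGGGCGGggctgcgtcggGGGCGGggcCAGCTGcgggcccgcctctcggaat

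The Mrpl41 stretch held 2 CCAAT boxes read from the opposite strand and the Mrpl40 stretch 2 SP1/KLF boxes and an E-box. Mrpl17 (chr7:105811088-105811287, minus strand) and Mrps9 (chr1:42851033-42851232, plus strand) are shown as examples of peaks that covered the start of the gene and had no other protein-coding gene within 1 kb. Of these stretches, 63 bases at Mrpl17 and all 200 at Mrps9 lay under the peak.
Mrpl17: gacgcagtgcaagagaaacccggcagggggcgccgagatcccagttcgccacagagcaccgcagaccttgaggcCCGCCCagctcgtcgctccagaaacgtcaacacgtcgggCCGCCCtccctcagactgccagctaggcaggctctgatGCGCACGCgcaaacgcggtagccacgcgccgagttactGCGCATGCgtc
Mrps9: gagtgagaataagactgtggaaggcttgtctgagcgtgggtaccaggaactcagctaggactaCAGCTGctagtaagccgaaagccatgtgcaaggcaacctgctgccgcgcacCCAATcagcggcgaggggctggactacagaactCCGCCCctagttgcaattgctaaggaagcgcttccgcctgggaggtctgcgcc

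Mrps11 and Mrpl46 are the only members of the family that lie side by side within 1 kb. They are read away from each other from starts with 41 bases between them (chr7:78783090-78783130), shown on the strand of Mrps11. They shared a single H3K4me3 peak of 23.3-fold in the pooled list, the next highest of the family after Mrpl51, and had no PSME3 peak in any list.
Mrps11 to Mrpl46: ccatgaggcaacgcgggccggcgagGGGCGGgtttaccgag

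Promoter sequences of 250 bases before and 50 after a start were at hand for 69 of the 78 genes (75 starts). The ETS/GABPA core was in 34.7% of the 75, next to 8.86% of all 32851 promoters and 16.3% of the 13658 promoters of genes with H3K4me3. The NRF1 core was in 29.3%, next to 9.95% and 18.6%, and the YY1 core in 16%, next to 2.75% and 4.17%. These are sites of factors that regulate nuclear genes for mitochondrial proteins. The SP1/KLF box was in 52.0% (35.7% and 61.5%), the CCAAT box in 40% (37.4% and 37.6%), the TATA box in 6.67% (13.6% and 7.39%) and the E-box in 16% (16.3% and 15.5%). A match is a description of letters, not a bound site.

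Among the same promoters, those of genes with and without a pooled PSME3 peak were also set side by side. The SP1/KLF box was in 15 of 20 promoters with PSME3 (75%) and 24 of 55 without (43.6%). The YY1 core was in 1 of 20 (5%, at Mrpl37) and 11 of 55 (20.0%). The E-box was in 25% and 12.7%, the ETS/GABPA core in 40% and 32.7% and the NRF1 core in 25% and 30.9%. Median GC content was 61.2% with PSME3 and 58.0% without. No test was made of these shares, and Mrpl48 alone supplied 4 of the 20 promoters.

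Mitochondrial ribosomal protein genes are often close to other genes. Of the 78, 47 (60.3%) had another protein-coding gene within 1 kb, compared with 31.7% of all protein-coding genes. The median span of the 78 was 7690.5 bp, compared with 17146 bp over all genes and 24124 bp over genes with pooled H3K4me3. A peak counted anywhere within 1 kb of the span, so a longer gene was searched over more bases. PSME3 was in the pooled list at 13 of the 47 with a neighbour (27.7%) and at 4 of the 31 without (12.9%). Over all genes with H3K4me3 these shares were 38.9% and 33.3%. At 10 of the 17 genes the PSME3 peak itself had another protein-coding gene within 1 kb, so it cannot be assigned to either. These neighbours were Tcp1 (of Mrpl18), Cyb5rl (Mrpl37), Hira (Mrpl40), Pnpla7 (Mrpl41), Ndufb5 (Mrpl47), Ncapd2 (Mrpl51), Ska3 (Mrpl57), Cfap70 (Mrps16), Ppp1r10 (Mrps18b) and Slc5a3 (Mrps6). Ndufb5, which encodes a subunit of respiratory complex I, thus shared its PSME3 peak with Mrpl47.

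The family ranked above the middle of all genes by the strength of H3K4me3. A gene was given the percentile of its strongest peak among all genes with a peak in the list. The median percentile of the 78 was 58.7 in the pooled list, 61.3, 64.2 and 66.3 in replicates 1, 2 and 3, and 58.2 to 67.8 in the day 2 preparations. Their H3K4me3 peaks were not wide, with a median of 2703 bp in the pooled list next to 2878 bp over all genes with the mark, and the median was narrower than that of all genes in all 8 lists.

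Mrpl51, a large subunit protein without a bacterial counterpart, had the highest pooled H3K4me3 enrichment of the family, 24.4-fold. Its percentile was 91.8, 99.4 and 98.9 in the cycling replicates and 88.8 to 97.9 at day 2. Mrps23 was at 99.7, 94.5 and 96.7 in the replicates and at 82.4 to 97.5 at day 2. Mrpl14, which encodes a protein of the core shared with bacteria, was at 95.9, 97.8 and 93.4, and at 90.1 to 98.9. Among the others of the 10 highest, Mrpl37 was at 59.2 in replicate 1 and 97.5 in replicates 2 and 3, and Mrpl18 at 51.5, 96.8 and 97.2. Mrpl50 was at 65.9, 95 and 95.9, Mrpl47 at 83.9, 88.9 and 95.7 (82.5 to 96.8 at day 2), and Mrpl57 at 93.5, 77.8 and 82.3. The peak shared by Mrpl46 and Mrps11 was at 83.3, 95.3 and 95.6, and at 71.5 to 91.4 at day 2.

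Of those 10 genes with the highest H3K4me3, 6 also had a pooled PSME3 peak (Mrpl18, Mrpl37, Mrpl47, Mrpl51, Mrpl57 and Mrps23), and Mrpl14, Mrpl46, Mrpl50 and Mrps11 had none. When all 13346 genes with H3K4me3 were divided by its fold enrichment into 5 bins of equal size, 0 of the 78 fell in bin 1, the lowest. In bins 2 to 5 PSME3 was at 2 of 11 (18.2%), 5 of 29 (17.2%), 3 of 20 (15.0%) and 7 of 18 (38.9%) of the family, next to 29.0%, 37.2%, 43.2% and 55.9% of all genes in the same bin. In each of these 4 bins the share was lower in the family, and bins 2 and 5 hold under 20 of its genes.

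**Figure D4:**
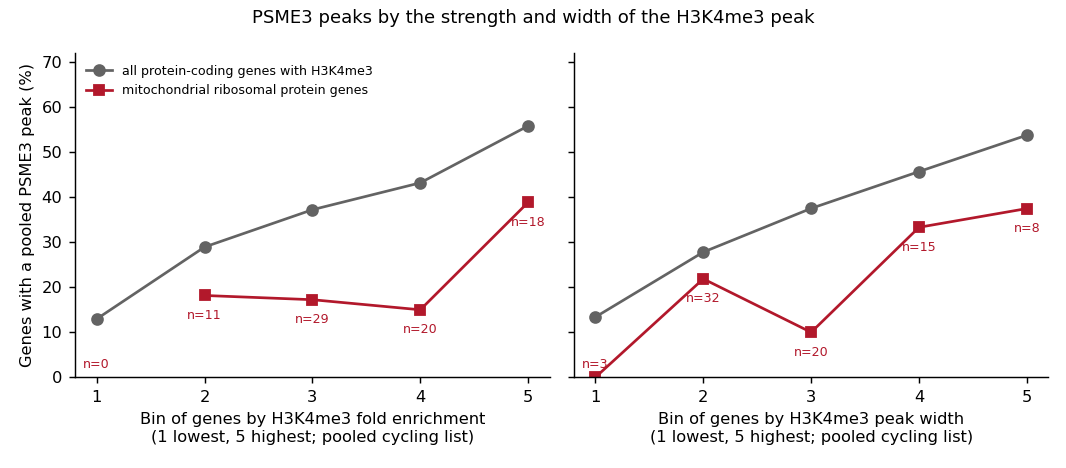
Percent of genes with a pooled PSME3 peak in each of 5 equal bins of the genes with H3K4me3, ordered by fold enrichment (left) or width (right) of the H3K4me3 peak, for all protein-coding genes (grey) and the mitochondrial ribosomal protein genes (red, with their number). In the top bin by fold enrichment the shares were 38.9% and 55.9%.

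Genes of the family with PSME3 had a higher median percentile of H3K4me3 than those without in most lists, as did all protein-coding genes. In the pooled list the median percentile was 63.4 for the 17 with a pooled PSME3 peak and 57.9 for the 61 without, next to 64.8 and 40.8 over all genes with the mark. It was 76.3 and 62.6 in replicate 2 and 75.8 and 63.2 in replicate 3, but 60.2 and 63.2 in replicate 1, where all genes had 63.1 and 41.4. At day 2, when none of these genes had a PSME3 peak, it was 75.2 and 55.4 in the fresh native, 78.4 and 60.8 in the fresh crosslinked, 67.2 and 60.9 in the frozen native and 73.0 and 55.6 in the frozen crosslinked library. The values of both classes overlapped widely in every list.

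**Figure D5:**
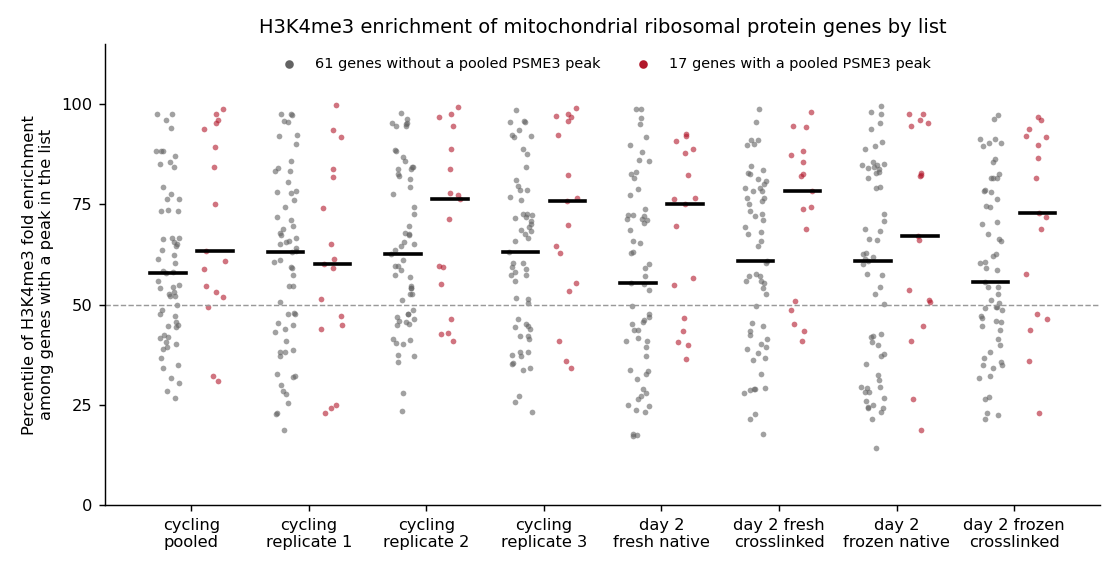
Percentile of H3K4me3 fold enrichment among genes with a peak in the list (y axis) for each of the 78 genes in each list, split by whether the gene had a pooled cycling PSME3 peak (17, red) or not (61, grey); black lines are medians and the dashed line is 50. The median with PSME3 is higher in 7 of the 8 lists, replicate 1 being the exception.

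At day 2 no PSME3 peak was called at any of the 78 genes, in any preparation. A count of 0 of 78 allows a share of up to 3.85% if 3 counts are taken as the limit of a count of 0, and up to 4.62% by the Clopper-Pearson interval. Among all protein-coding genes the share was itself small, 0.0868% in the fresh native, 0.0776% in the fresh crosslinked, 0.95% in the frozen native and 0.402% in the frozen crosslinked library, all below both limits. The 3 cycling libraries had 5 ± 6.08 genes of the family with PSME3 and the 4 day 2 libraries 0 (exact permutation p = 0.057, the smallest that 3 against 4 libraries allow). The groups did not overlap, and without replicate 3 the mean of the cycling libraries was 1.5 genes. With peaks of a q-value of at most 0.01 alone, replicate 2 also had 0 genes and the groups overlapped (exact permutation p = 0.286). Taken as the percent of the family minus the percent of all genes, the difference was -0.404 points (exact permutation p = 0.686). On that scale the direction turned and the day 2 and cycling libraries overlapped. The frozen native preparation, which matches the handling of the cycling cells, also had 0 of 78. It is 1 library of unknown depth, so in it depth and differentiation cannot be told apart, and in the other preparations handling adds to both.

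H3K4me3 stayed at all 78 genes at day 2, and genes whose rank did not overlap between cycling and day 2 were no more frequent in the family than elsewhere. In all 4 day 2 libraries the percentile was above that of all 3 cycling libraries at 4 of the 78 genes (5.13%), next to 6% of the 11642 genes with the mark in all 7 libraries. It was below at 9 (11.5%), next to 16.7%. Both shares were below those of all genes. The median difference, day 2 minus cycling, was -2.24 in the family and -2.92 over those genes. Percentiles were taken among 12876 to 13925 genes in the cycling lists and 11946 to 12619 at day 2. No single gene was tested, and the genes are named after their values were seen, as a description. Mrps36 was at 24.3, 43.0 and 36.1 in the cycling replicates and at 43.5 to 82.2 at day 2, and Mrpl2, Mrpl55 and Mrps21 were the other 3 that were higher. Mrps22 was at 60.6 to 63.2 in cycling cells and 27.9 to 41.1 at day 2, and Mrpl34 at 72.3 to 92.3 and 37.7 to 60.8. Mrpl17, Mrpl19, Mrpl38, Mrps24, Mrps26, Mrps27 and Mrps30 were also lower. Mrps36 and Mrpl17, which differed in opposite directions, both had a pooled PSME3 peak in cycling cells.

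The families most like this one were set beside it. PSME3 was in the pooled list at 12 of 88 cytosolic ribosomal protein genes (13.6%) and at 20 of 88 nuclear genes of the respiratory chain (22.7%). In the replicates the mitochondrial family was higher than the cytosolic one by 2.24 ± 3.71 percentage points (SD, n = 3; exact sign-flip permutation p = 0.5), in 2 of 3 replicates. It was higher than the respiratory chain genes by 1.86 ± 2.85 points (SD, n = 3; exact sign-flip permutation p = 0.25), in 3 of 3 replicates. The numbers of genes in replicates 1 and 2 were however equal in both families, 1 and 2, so the direction there came from the smaller number of genes in the mitochondrial family. The large subunit was below the small on average, with a mean difference of -0.774 points and differences of 2.04, 4.08 and -8.44 in replicates 1, 2 and 3 (exact sign-flip permutation p = 1). All of these differences were smaller than the spread between replicates, and all depended on replicate 3. Without it they were 0.219, 0.219 and 3.06 points.

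Genes that serve the mitochondrial ribosome without being Mrp proteins by name were looked up from lists of known factors. Of 5 further structural proteins, Dap3, the GTP-binding protein of the small subunit, had PSME3 in the pooled list (2.68-fold) and in replicate 3 (3.54-fold), and Chchd1 in replicate 3 alone (3.82-fold). All 23 assembly factors carried pooled H3K4me3. Of them 5 had a pooled PSME3 peak (21.7%, next to 35.6% of genes with H3K4me3 and 21.9% of all genes). These were the GTPases Eral1 and Noa1, the rRNA methyltransferases Mrm1 and Tfb1m, and Malsu1. Tfb1m was at 3.80-fold in the pooled list, 4.75 in replicate 1 and 4.48 in replicate 3. Mpv17l2 (4.04 in replicate 1, 3.25 in replicate 3) and Mtg2 (3.62 in replicate 3) had peaks in replicate lists alone. Of 6 genes of mitochondrial transcription and mRNA stability, all with H3K4me3, Lrpprc and Tfb2m had a pooled PSME3 peak (33.3%, next to the same 35.6%). The polymerase gene Polrmt and Tfam had none.

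All 12 translation factors carried pooled H3K4me3. Of them, Mtif3 (2.95-fold) and Mtrf1l had a pooled PSME3 peak (16.7%, next to 35.6% of genes with H3K4me3 and 21.9% of all genes). Mtrf1l encodes the release factor that ends most mitochondrial proteins. Its PSME3 enrichment was 5.92 in the pooled list and 8.83, 6.42 and 7.53 in replicates 1, 2 and 3. It was the only gene of the lists looked up that had PSME3 at day 2, at 10.3-fold in the frozen native and 5.77-fold in the frozen crosslinked library, with no peak in either fresh library. No gene of the Mrpl and Mrps family reached its pooled value.

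Of 8 listed factors that act at promoters of nuclear genes for mitochondrial proteins, 6 had a pooled PSME3 peak at their own gene (75%, next to 35.6% of genes with H3K4me3, which all 8 carried): Esrra, Nrf1, Ppargc1a, Ppargc1b, Pprc1 and Yy1. Esrra, an orphan nuclear receptor, was in all 3 replicates, at 5.60-, 3.79- and 3.35-fold. Pprc1, a coactivator of the PGC-1 family, was in replicates 1 and 3. Gabpa and Gabpb1, which encode the subunits of GABP, had none.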

How the data were processed

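Per the submitters' processing notes and the study's methods, reads were trimmed with Trim Galore, aligned with Bowtie2 to mm10 and called with MACS2, per library and once on pooled cycling replicates. Versions, options and the control library are not given in the sources used here. For each peak the authors deposited a fold enrichment (a ratio to the estimated background) and the −log10 of its q-value, all q-values being under 0.1. A deeper library passes this threshold at weaker sites, so counts of genes depend on depth, which is unknown.

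Genes came from a RefSeq table of GRCm38.p6 with 49997 genes, and a gene had a peak when any base lay within 1 kb of its span. Members and lists were chosen with earlier results of these data known. Genes named are members in all 3 PSME3 replicate lists (none), the 10 highest by pooled fold enrichment of each antibody, members with PSME3 at day 2 (none) and members without H3K4me3 (none), unless said otherwise. Exact two-sided permutation tests took the library as the unit. For same-numbered PSME3 and H3K4me3 libraries, deviations of peak shares over 19 autosomes had a Pearson r of 0.538, 0.552 and 0.264 in replicates 1, 2 and 3. Replicates 1 and 3 could not be told from each other (0.521 and 0.254 across). Deviations were taken from the mean of the 3 replicates, so the values set only replicate 2 apart. They cannot show that the numbers are paired. Intervals are Clopper-Pearson at 95%. On simulated data the search found 120 of 120 genes with a peak within 1 kb and 0 of 80 with a peak farther off. Python 3.11.15, numpy 2.4.6, pandas 2.3.3, scipy 1.17.1 and matplotlib 3.10.9 were used. Alternatives were the distance, q-value, peak centre, start sites, neighbours, further structural genes, replicates left out, the replicate block and scale, and 1 added after seeing the data (genes with H3K4me3 in all 7 libraries).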

Additional observations from a re-analysis of the deposited data

How the results depend on the processing

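The share of the family with PSME3 in the pooled list, 21.8%, became 12.9% without members that have another protein-coding gene within 1 kb and 2.56% when a peak in at least 2 replicates was required. Counting only pooled peaks found in a remaining replicate, it ran from 3.85% without replicate 3 to 15.4% without replicate 1, with 14.1% without replicate 2. The difference from all protein-coding genes turned from -0.783 to 2.09 points at a q-value of at most 0.01. It turned to 0.734 around start sites and to 0.465 without replicate 1. It fell to -2.16 without replicate 3 and to -3.96 without members that have such a neighbour. In that setting other genes with a neighbour stayed in the reference. Among genes with H3K4me3 it stayed negative in all 13 alternatives, from -8.50 without such members (reference as before) to -0.176 at a q-value of at most 0.01. It was -3.87 around start sites and -6.29 to -4.69 without a replicate. With H3K4me3 required in all 7 libraries, an alternative chosen after seeing the data, it was -6.74. The replicate block left the difference of PSME3 and H3K4me3 at -73 (paired exact sign-flip permutation p = 0.25), and the difference among genes with H3K4me3 at -5.51 with the mark of the same replicate. Without a replicate the former ran from -76.5 to -71 and cycling minus day 2 from 1.5 to 7 genes for PSME3 and 0 to 0 for H3K4me3. As percent of the family minus percent of all genes, cycling minus day 2 was -0.404 for PSME3 and -3.86 for H3K4me3 (exact permutation p = 0.686 and 0.057). The large minus small subunit difference turned to 0.164 at 0 bp, 0.566 around start sites and 3.06 without replicate 3 (lowest -3.20). Against cytosolic ribosomal protein genes it ran from 0.219 to 3.86 and against respiratory chain genes from 0.219 to 2.72 without a replicate. The median H3K4me3 percentile, 58.7, was 63.6 by −log10 q and 67.4 by the mean over peaks, and that of PSME3, 47.6, was 66.9 and 49.8. Of 113 alternative values, 7 reversed. Where the values moved, the cause was not tested. No test could pass 0.05 in any setting, so the p-values say nothing about stability.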
